A study of Mus musculus with 12 samples.

Results

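The Magea genes are X-linked members of the mouse MAGE-A family, and 8 of them (Magea1, Magea2, Magea3, Magea4, Magea5, Magea6, Magea8 and Magea10) were taken by symbol from a table of 55487 genes. They were selected on measured values: Magea genes stood among the highest fold changes of Pcbp1 knockout over control cells in an earlier analysis of the same counts. The counts come from E14 Tg2a, an established line of mouse embryonic stem cells, with Pcbp1 knockout cells (KO) and control cells (called Scr in the series text and WT in the sample labels), each as 3 independent clones. Naive cultures of both genotypes were grown in serum-free N2B27 medium with LIF, 1 µM of the MEK inhibitor PD0325901 and 3 µM of the GSK3 inhibitor CHIR99021. Epiblast-like cells (EpiLCs) of both genotypes had 48 h in N2B27 with 12 ng/ml bFGF, 20 ng/ml activin A and 1% KOSR on fibronectin. This gave 4 groups of 3 libraries, WT and KO in naive culture and both again as EpiLCs. The sources used here do not say which part of Pcbp1 was removed.

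MAGE-A genes are known as cancer-testis genes, which are transcribed in male germ cells and silenced in most other tissues. The silencing is known to involve DNA methylation of the promoter, and in mouse embryonic stem cells Mage-a genes are also known as targets of the histone H3 lysine 9 methyltransferase G9a, which Ehmt2 encodes. MAGE-A proteins carry a MAGE homology domain through which they bind RING-type ubiquitin ligases such as TRIM28.

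The 8 genes did not form a single cluster. Their positions (GRCm38) fall into 2 groups on the X chromosome that lie 82.5 Mb apart. Magea4 (ENSMUSG00000033343.1, X:72222017-72222964, plus strand, exons of 948 bases) and Magea10 (ENSMUSG00000043453.5, X:72381870-72386858, minus strand, exons of 1821 bases) form the first group, called proximal from here on. The other 6 are on the minus strand within 169.7 kb and are called distal. In order these are Magea6 (ENSMUSG00000063728.10, X:154924012-154935987), Magea3 (ENSMUSG00000094196.2, X:154948543-154949505), Magea8 (ENSMUSG00000079350.2, X:154985775-154995850), Magea2 (ENSMUSG00000055746.9, X:155027201-155093666), Magea5 (ENSMUSG00000079349.9, X:155053061-155063145) and Magea1 (ENSMUSG00000096644.1, X:155088686-155089793). The span of Magea2 contains Magea5 and Magea1, but no member shares an exon base with another gene.

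The start regions of the members are shown because they fall into related sets that cross the 2 loci. All 8 have a RefSeq promoter window (GRCm38.p6), used here from 250 bases before the start to 30 bases after it. The windows of Magea8, Magea2, Magea5 and Magea10 aligned with each other along most of their length. They follow 5′ to 3′ with CG dinucleotides, the sites of DNA methylation, in capitals.
Magea8, chrX:154995821-154996100, minus strand: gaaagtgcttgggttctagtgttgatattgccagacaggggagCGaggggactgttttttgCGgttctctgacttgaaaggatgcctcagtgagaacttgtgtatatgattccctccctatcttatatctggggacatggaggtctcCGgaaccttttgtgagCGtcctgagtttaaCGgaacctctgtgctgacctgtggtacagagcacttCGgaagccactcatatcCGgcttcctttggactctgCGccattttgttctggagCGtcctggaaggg
Magea2, chrX:155033263-155033542, minus strand: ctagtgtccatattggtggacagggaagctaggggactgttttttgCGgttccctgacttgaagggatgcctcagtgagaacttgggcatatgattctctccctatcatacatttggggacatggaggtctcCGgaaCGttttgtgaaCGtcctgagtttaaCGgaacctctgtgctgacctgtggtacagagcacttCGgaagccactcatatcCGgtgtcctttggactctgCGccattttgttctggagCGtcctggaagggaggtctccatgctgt
Magea5, chrX:155061524-155061803, minus strand: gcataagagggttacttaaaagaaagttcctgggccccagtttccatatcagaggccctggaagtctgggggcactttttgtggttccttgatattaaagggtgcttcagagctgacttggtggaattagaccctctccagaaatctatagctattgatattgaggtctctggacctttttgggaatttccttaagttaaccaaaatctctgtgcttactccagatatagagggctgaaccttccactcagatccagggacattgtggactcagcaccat
Magea10, chrX:72386829-72387108, minus strand: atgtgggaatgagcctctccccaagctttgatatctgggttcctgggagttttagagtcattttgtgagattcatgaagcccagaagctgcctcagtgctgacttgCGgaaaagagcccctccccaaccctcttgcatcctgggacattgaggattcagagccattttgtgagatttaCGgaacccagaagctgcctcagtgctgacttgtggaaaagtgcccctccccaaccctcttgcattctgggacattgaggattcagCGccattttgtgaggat
Magea8 and Magea2 were identical at 92.8% of 265 aligned bases. Magea5 matched Magea8 at 70.7% and Magea10 matched it at 66.1% of aligned bases. The number of CG dinucleotides differed within this set: 9 in Magea8, 9 in Magea2, 3 in Magea10 and 0 in Magea5. A second set was formed by Magea3 and Magea1 (86.3% identical) with Magea4 (76.5% identical to Magea3), and these windows held 0, 1 and 1 CG. The Magea6 window, with 1 CG, aligned with no other member over 150 bases or more. The RefSeq starts of Magea8, Magea10 and Magea4 are also the 5′ ends of the gene models behind the counts. Those of Magea5, Magea6 and Magea2 lie 1.59 kb, 9.87 kb and 60.4 kb from that end. Magea4, Magea3 and Magea1 are each annotated as a single exon, so their windows need not be promoters.

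None of the 8 windows held the ETS motif CCGGAAG, the motif of E2F6 spelled TCCCGC, the E-box in the form CACGTG, the SP1 motif written GGGCGG or a TATA box with the letters TATAAA on either strand. Among all 32851 windows of this length in the table, 8.45%, 18.8%, 6.79%, 34.7% and 13.1% held these letters, in that order. The longest run of bases common to the Magea8, Magea2 and Magea10 windows, searched for after the windows had been seen, was GCGCCATTTTGT, which lies close to the annotated start in each. Of the 32851 windows 5 (0.0152%) held it on either strand, the other two belonging to Dyrk1a and Srsf2. These matches describe letters only.

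The transcripts set how far the members can be told apart by sequencing. Between the 6 distal genes the longest GENCODE M21 transcripts were 94.7% to 99.2% identical over their aligned bases, the highest value being that of Magea2 and Magea1. Of the 100-base stretches of a transcript, 64.1% in Magea1, 44.1% in Magea2, 25.4% in Magea5, 22.6% in Magea3, 21.4% in Magea8 and 15.99% in Magea6 occurred exactly in a transcript of another gene. In Magea4 and Magea10 this share was 0.0%. Under the defaults of the counting tool, reads that map equally well to several places are left out. The separate counts of distal members therefore rest on the parts that differ and are less certain than those of Magea4 and Magea10.

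Levels are given as CPM, the counts relative to the TMM-scaled library size, as mean ± SD over the 3 libraries of a group. Magea4, the member with the highest level per kilobase of exon in all 4 groups, had 5.86, 6.76 and 4.83 CPM in the naive WT libraries and 50.5, 43.8 and 44.7 CPM in the naive KO libraries. In EpiLCs it had 5.29, 4.26 and 3.33 CPM in WT and 39.5, 39.4 and 45.9 CPM in KO. Every KO library lay above every WT library of its culture, and the levels of the 3 KO libraries were close to each other. Magea10, its proximal neighbour, had 0.128, 0.833 and 0.584 CPM in naive WT and 8.91, 5.99 and 6.67 CPM in naive KO. In EpiLCs Magea10 had 0.537, 0.448 and 0.499 CPM in WT and 10.4, 7.40 and 12.3 CPM in KO. For Magea10 the KO libraries again lay above all WT libraries, by a wider margin in EpiLCs.

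**Figure D1:**
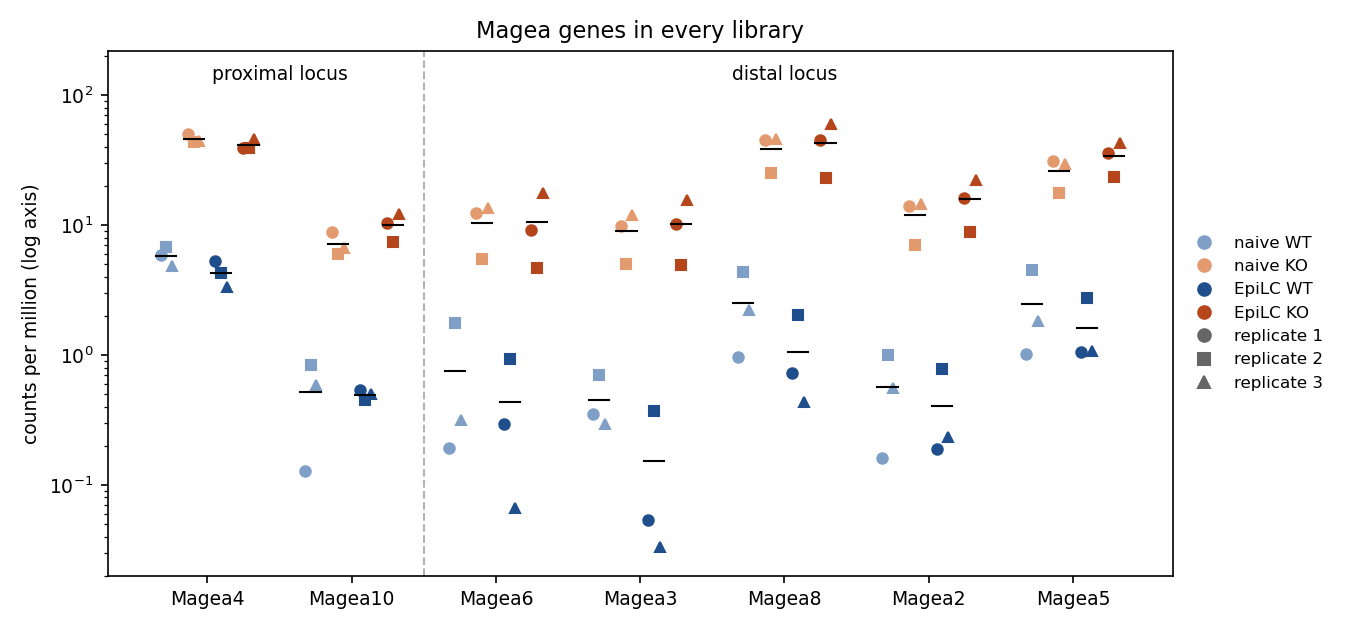
CPM (log axis) of the 7 Magea genes with enough counts to test, in each of the 12 libraries, with colour for the group, symbol for the replicate number and a bar for the mean of 3 libraries. For all 7 genes the KO libraries sit above the WT libraries of the same culture.

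Magea8, the distal member with the highest mean CPM in naive WT, had 0.961, 4.36 and 2.20 CPM in naive WT and 45.3, 25.04 and 45.8 CPM in naive KO. In EpiLCs it had 0.726, 2.02 and 0.432 CPM in WT and 45.3, 23.0 and 60.1 CPM in KO. Replicate 2 was the highest of the WT libraries and the lowest of the KO libraries in both cultures. Magea5 had 1.03, 4.49 and 1.83 CPM in naive WT, 31.3, 17.7 and 29.6 CPM in naive KO, 1.05, 2.76 and 1.06 CPM in EpiLC WT and 35.6, 23.5 and 43.1 CPM in EpiLC KO. Magea3 had 0.352, 0.705 and 0.292 CPM in naive WT, 9.81, 4.99 and 12.0 CPM in naive KO, 0.0537, 0.374 and 0.0333 CPM in EpiLC WT and 10.2, 4.97 and 15.6 CPM in EpiLC KO. The lowest of these values stand on single reads: Magea3 had 2, 10 and 1 counts in the EpiLC WT libraries, against 445, 188 and 555 in EpiLC KO.

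Magea6 ranged from 0.192 to 1.76 CPM in naive WT, 5.46 to 13.5 in naive KO, 0.0665 to 0.934 in EpiLC WT and 4.70 to 17.7 in EpiLC KO. Magea2 ranged from 0.160 to 0.993 CPM in naive WT, 6.99 to 14.6 in naive KO, 0.188 to 0.784 in EpiLC WT and 8.91 to 22.4 in EpiLC KO. Neither gene's KO range touched its WT range. Magea1 had 0 counts in 11 libraries and 1 count in EpiLC KO replicate 1. A count of 0 allows up to 3 counts, which is 0.0711 to 0.111 CPM on the unscaled totals. This limit covers counting error only and not reads that fit Magea1 and another gene equally well, which are left out of the counts.

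On the scale of mean CPM per kb of exon, Magea4 stood first in naive KO at 48.9, followed by Magea8 at 23.5, Magea5 at 15.9, Magea3 at 9.27, Magea6 at 8.64, Magea2 at 6.88 and Magea10 at 3.95. In EpiLC KO the order was Magea4 (43.9 CPM per kb), Magea8 (26.0), Magea5 (20.7), Magea3 (10.7), Magea2 (9.13), Magea6 (8.70) and Magea10 (5.51). Only Magea4 stood apart, its lowest library above the highest library of the next gene in all 4 groups. From the second to the seventh place, genes next to each other in the order overlapped in every group, so those places are not resolved. In naive WT, Magea4 had 6.14 CPM per kb and the other 6 tested members 0.283 to 1.52.

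The contrasts of KO with WT chose the members, so their differences are a description without a test. In naive cells the log2 fold change (KO over WT ± SE, edgeR) was 2.99 ± 0.183 for Magea4, 3.79 ± 0.441 for Magea10, 3.80 ± 0.822 for Magea6, 4.31 ± 0.619 for Magea3, 3.95 ± 0.572 for Magea8, 4.37 ± 0.605 for Magea2 and 3.42 ± 0.504 for Magea5. In EpiLCs it was 3.27 ± 0.187 for Magea4, 4.33 ± 0.45 for Magea10, 4.65 ± 0.88 for Magea6, 6.14 ± 0.719 for Magea3, 5.37 ± 0.629 for Magea8, 5.35 ± 0.643 for Magea2 and 4.41 ± 0.533 for Magea5. Of the 8 members 7 passed the filter on low counts. All 7 were called higher in naive KO, where 4.27% of the 18134 genes tested were, and all 7 in EpiLC KO, where 7.22% were. Their KO and WT libraries did not overlap in either culture, as for 15.1% (naive) and 16.1% (EpiLC) of genes in that direction. Nothing is read from these counts because the same contrasts selected the genes. The median was 3.80 in naive cells and 4.65 in EpiLCs, against 0.00 over all genes tested in both.

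With all 8 members added into 1 row before the fit, KO over WT was 3.52 ± 0.362 in naive cells and 4.29 ± 0.377 in EpiLCs on the log2 scale. The summed level was 13.1 ± 6.00 CPM in naive WT and 149.7 ± 34.5 CPM in naive KO, and 8.46 ± 2.98 CPM in EpiLC WT and 165.1 ± 52.6 CPM in EpiLC KO. The distal genes made up 47.3 ± 15.5% of this sum in naive WT, 63.1 ± 7.54% in naive KO, 40.0 ± 16.9% in EpiLC WT and 67.1 ± 7.93% in EpiLC KO. The call of Magea6 in naive cells was lost without naive WT replicate 3 (edgeR adjusted p = 0.0634), and no other member's call in these contrasts was lost when any of the 12 libraries was left out. In bulk RNA, more cells with the transcripts and more transcript per cell cannot be told apart.

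**Figure D2:**
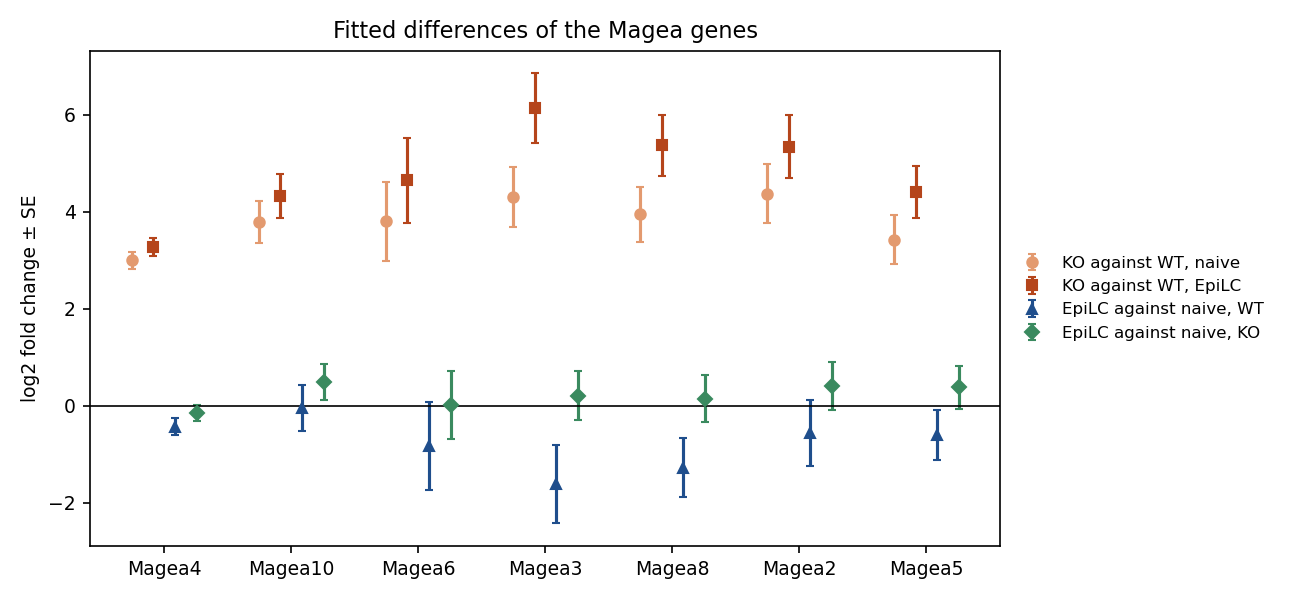
Fitted log2 fold change ± SE of the 7 tested Magea genes for KO against WT in naive cells and in EpiLCs and for EpiLC against naive in WT and in KO. The differences between genotypes lie between 2.99 and 6.14, while those between cultures lie between -1.62 and 0.48.

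The size of the Magea level differed between clones of a genotype, and the place of replicate 2 was shared across the distal genes. WT replicate 2 was the highest of its group for 5 of 5 distal members tested in naive cells and for 5 of 5 in EpiLCs. KO replicate 2 was the lowest of its group for 5 of 5 distal and 2 of 2 proximal members, in naive cells and again in EpiLCs. The summed distal level of the naive WT libraries was 2.69, 12.3 and 5.20 CPM and that of the naive KO libraries 112.9, 60.1 and 115.5 CPM. In EpiLCs it was 2.31, 6.87 and 1.83 CPM in WT and 116.4, 65.1 and 158.9 CPM in KO. The proximal sum moved less between replicates: 5.99, 7.59 and 5.42 CPM in naive WT and 59.4, 49.8 and 51.4 CPM in naive KO. The ratio of the highest to the lowest replicate of a group was 1.15 to 1.59 for Magea4, which makes up most of the proximal sum. It was 6.50 for the other proximal gene, Magea10, in naive WT, and reached 14.04 for Magea6 in EpiLC WT. The distal genes lie side by side and share sequence, so they are not 5 independent observations of a clone. The labels number the replicates and do not say outright that a number is a clone.

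**Figure D3:**
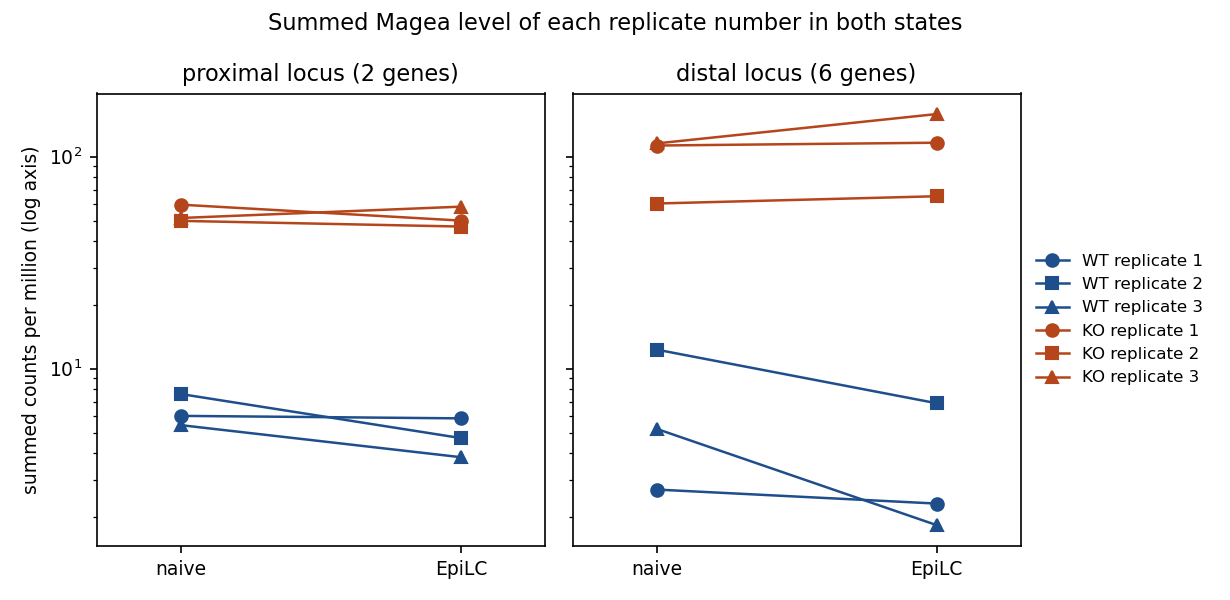
Summed CPM (log axis) of the proximal and of the distal Magea genes in naive cells and EpiLCs, with a line joining libraries that carry the same replicate number within a genotype. Distal levels of replicate 2 lie highest among WT and lowest among KO libraries in both cultures, and no WT line meets a KO line.

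The change from naive culture to EpiLCs was not used to choose the members, although the same libraries stand in both kinds of contrast. In WT, 0 of 7 tested members passed the edgeR quasi-likelihood test with Benjamini-Hochberg adjustment, in a comparison that called 52.7% of all genes tested, and 1 of 7 had an unadjusted p below 0.05. All 7 fitted changes were below 0, from -1.62 ± 0.802 for Magea3 (adjusted p = 0.107) and -1.28 ± 0.613 for Magea8 (adjusted p = 0.0973) to -0.43 ± 0.18 for Magea4 (adjusted p = 0.0598) and -0.06 ± 0.476 for Magea10. Their median was -0.61, against -0.01 over all genes. For every member the naive and EpiLC libraries of WT overlapped, whereas 29.9% of all genes were lower in EpiLCs with no overlap.

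Same-numbered replicates of a genotype deviated together in naive cells and EpiLCs, as did some libraries of opposite genotypes within EpiLCs. The change was also read within a replicate number, with the numbers taken as pairs. From naive to EpiLC, Magea8 changed by -0.41, -1.11 and -2.35 (log2) in WT replicates 1, 2 and 3, Magea3 by -2.71, -0.92 and -3.13, and Magea4 by -0.15, -0.67 and -0.54. These 3 members were lower in EpiLCs in 3 of 3 WT replicate numbers, and the other 4 tested members in 2 of 3. With the replicate number as a block, 4 of 7 members fell in WT (edgeR): Magea4 by 0.44 ± 0.143 (adjusted p = 0.0253), Magea3 by 1.71 ± 0.434 (adjusted p = 0.00852), Magea8 by 1.25 ± 0.296 (adjusted p = 0.00631) and Magea5 by 0.52 ± 0.192 (adjusted p = 0.0435). Without the block, DESeq2 called 1 member and a fit with no filter on low counts called 2. Leaving out a library gave 0 to 2 calls, with 2 calls without EpiLC WT replicate 2 and 1 call each without naive WT replicate 1, naive WT replicate 3 or EpiLC WT replicate 1. The calls in WT therefore changed with the block, the filter, the tool and the libraries used. The share of all genes called in each of these other fits is not given here. The main fit already called 52.7% of genes, so nothing particular to the members is read from these counts.

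In KO cells 0 of 7 members were called between EpiLC and naive, where 55.2% of all genes were, 0 of 7 had an unadjusted p below 0.05, and DESeq2 also called 0. The block on replicate number called 0 as well. The edgeR log2 changes ran from -0.16 ± 0.167 for Magea4 to 0.48 ± 0.369 for Magea10, with adjusted p from 0.289 to 0.992 and a median of 0.20. Magea10, Magea2 and Magea5 were higher in EpiLCs in 3 of 3 KO replicate numbers, by 0.23, 0.31 and 0.88 for Magea10, and no member was lower in all 3. The naive and EpiLC libraries of KO overlapped for every member, whereas 31.4% of all genes were higher in EpiLCs with no overlap.

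The interaction, the KO over WT difference in EpiLCs minus that in naive cells, is built from the contrasts that chose the members and is given as a description. It was above 0 for 7 of 7 members, from 0.28 ± 0.245 for Magea4 to 1.83 ± 0.949 for Magea3, with a median of 0.97 against -0.01 over all genes. No member was called (0 of 7 with an unadjusted p below 0.05, edgeR; 0 by DESeq2), in a contrast that called 0.381% of genes. The libraries do not resolve whether the difference between genotypes was larger in EpiLCs.

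Genes beside the Magea genes were examined to see whether the difference between genotypes was limited to the family. Within a locus or 200 kb of a member, 17 other genes had at least 1 read and 6 had enough counts for a test. Of these 6, 3 rose in naive KO and 2 in EpiLC KO, where 4.27% and 7.22% of all genes were called higher. Cldn34b1, counted in both cultures, passed the filter on low counts only through KO libraries. Gabre (X:72255999-72274803), a GABA-A receptor subunit gene between Magea4 and Magea10, had 1.41, 0.897 and 0.611 CPM in naive WT and 13.3, 10.4 and 7.60 CPM in naive KO. It rose by 3.43 ± 0.347 in naive KO (edgeR adjusted p = 0.00019). In EpiLCs Gabre had 1.13, 0.598 and 0.798 CPM in WT and 4.52, 3.94 and 3.58 CPM in KO, a rise of 2.23 ± 0.341 (edgeR adjusted p = 0.00151). From naive to EpiLC, Gabre fell by 1.38 ± 0.311 in KO cells (edgeR adjusted p = 0.00228), in 3 of 3 replicate numbers, a culture change that Magea4 and Magea10 did not show at the threshold. Whether Gabre and the Magea genes differ in this change was not tested.

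Gabra3 (X:72432681-72656848), another GABA-A receptor subunit gene beyond Magea10, was not called between genotypes: 3.03 ± 0.925 in naive cells (edgeR adjusted p = 0.0591) and -0.93 ± 0.702 in EpiLCs (edgeR adjusted p = 0.41). At the distal locus Cldn34b1 (X:154886805-154890267), a claudin-like gene 33.7 kb from Magea6, had 1, 1 and 0 counts in naive WT, against 23, 9 and 26 in naive KO. It rose by 4.61 ± 0.939 in naive KO (edgeR adjusted p = 0.0135), a call lost when replicate 3 of naive WT or replicate 1 of naive KO was left out. In EpiLCs Cldn34b1 had 0 counts in all 3 WT libraries and 3, 3 and 12 in KO, and that call was lost in 7 of 12 fits that left out a library. Because KO libraries alone brought Cldn34b1 through the filter, its adjusted p-values are a description. Sat1, the spermidine acetyltransferase gene 119.5 kb beyond the locus, rose by 0.58 ± 0.155 in naive KO (edgeR adjusted p = 0.0339), a call lost in 5 of 12 such fits, and was at 0.06 ± 0.158 in EpiLCs. Acot9, an acyl-CoA thioesterase gene 168.8 kb beyond the locus, was at -0.16 ± 0.112 and -0.28 ± 0.113 without a call. The non-member X-linked genes as a whole had a median log2 change of 0.03 in naive cells and 0.05 in EpiLCs, with 7.90% of 671 called higher in naive KO and 10.3% in EpiLC KO.

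**Figure D4:**
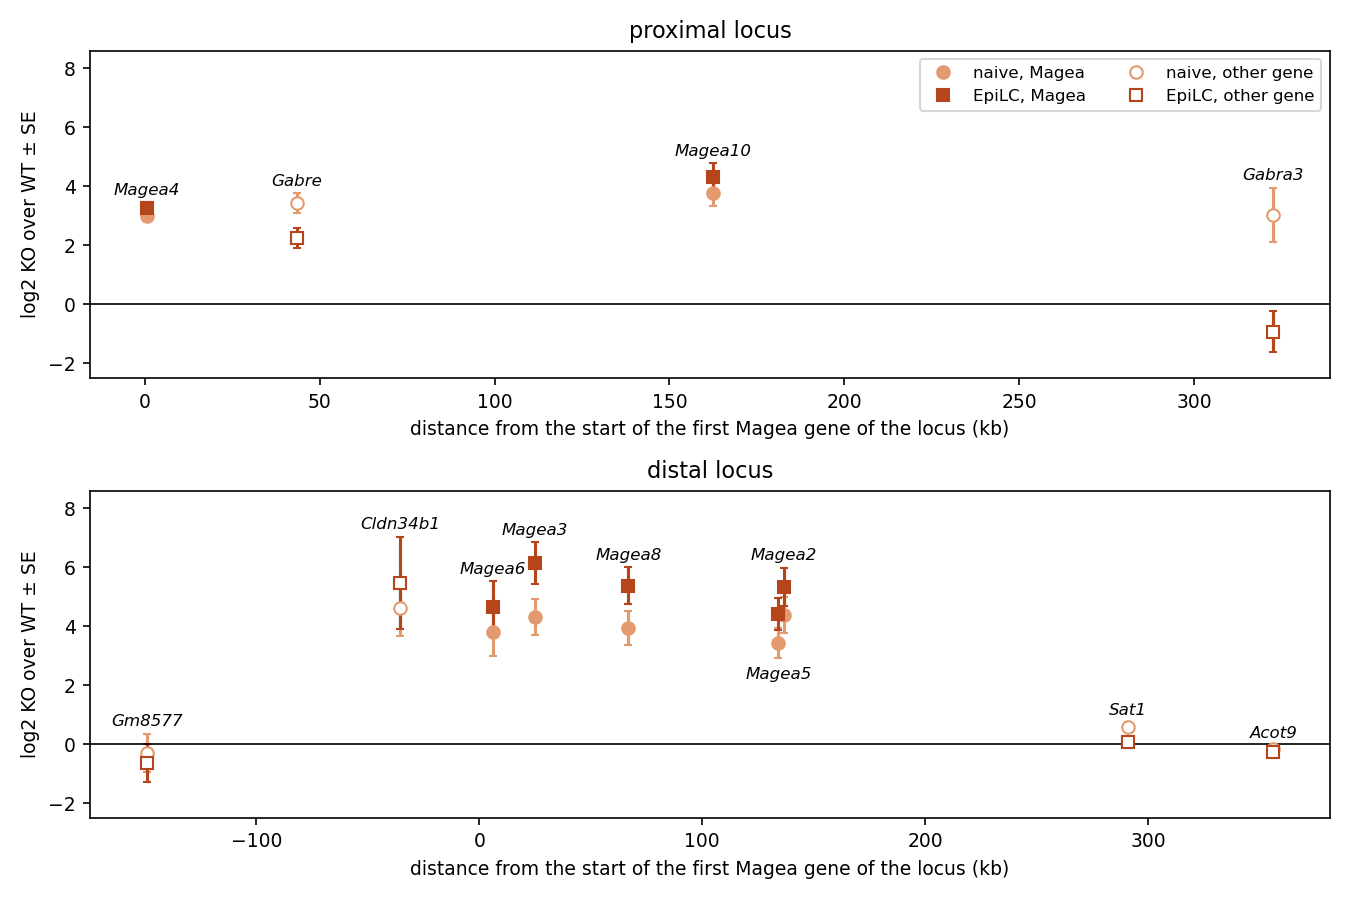
Log2 fold change of KO over WT ± SE against distance along each locus, for tested Magea genes (filled) and other tested genes (open), in naive cells and EpiLCs. At the proximal locus Gabre lies between Magea4 and Magea10 with a naive value of 3.43, and beyond the distal locus Sat1 and Acot9 lie at 0.58 and -0.16 in naive cells.

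Regulators known to keep germline genes silent were read as a list, of which 17 genes were found and tested. This list and the gene lists that follow were chosen with earlier results of these data known. Their counts of calls and adjusted p-values are therefore a description. Ehmt2, which encodes G9a, was the only one of the 17 called between genotypes, where 9.23% of all genes were called in either direction in naive cells and 15.1% in EpiLCs. It had 209.2, 168.8 and 200.3 CPM in naive WT and 86.2, 59.5 and 65.9 CPM in naive KO, a fall of 1.45 ± 0.145 (edgeR adjusted p = 0.000186). In EpiLCs it had 186.5, 182.4 and 152.0 CPM in WT and 55.0, 46.0 and 50.1 CPM in KO, a fall of 1.79 ± 0.147 (edgeR adjusted p = 4.23e-05). The KO libraries lay below all WT libraries in both cultures, and both calls were kept whichever library was left out. Ehmt2 also fell from naive to EpiLC in KO by 0.49 ± 0.144 (edgeR adjusted p = 0.0118), a call lost without naive KO replicate 1 or EpiLC KO replicate 2. Ehmt2 lies on chromosome 17 (34898469 to 34914052) and shares no exon base with another gene.

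The maintenance methyltransferase gene Dnmt1 changed by -0.13 ± 0.085 in naive KO (edgeR adjusted p = 0.379) and -0.24 ± 0.085 in EpiLC KO (edgeR adjusted p = 0.0724), and was not called. Uhrf1, its cofactor at replicated DNA, was at -0.35 ± 0.142 and -0.30 ± 0.142 (edgeR adjusted p = 0.149 and 0.174). L3mbtl2, a subunit of a Polycomb complex that binds germline promoters, was at -0.04 ± 0.175 and -0.45 ± 0.175 (edgeR adjusted p = 0.931 and 0.103). Of the other genes of the list, 3 were chosen after their values were seen. The G9a partner gene Ehmt1 was at 0.21 and -0.08, and Trim28 and Setdb1, of the KAP1 repressor complex, were at -0.10 and -0.15 in naive KO, none of them called. Of the 4 genes for removal of DNA methylation, Tet1, Tet2, Tet3 and Tdg, 0 were called between genotypes by edgeR in either culture. Ehmt2 and the Magea genes moved in opposite directions between the genotypes, but whether one bears on the other was not tested.

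**Figure D5:**
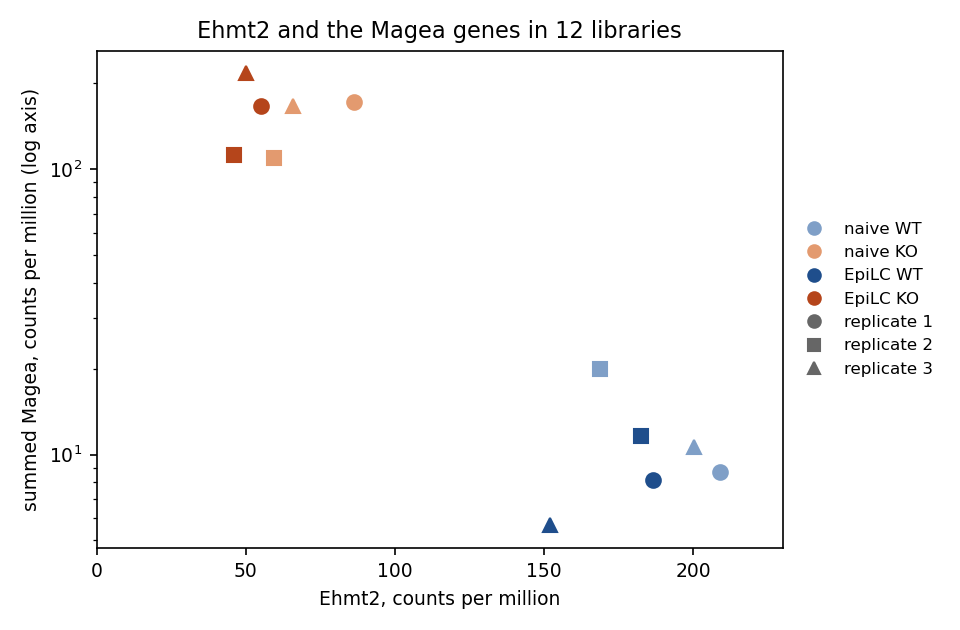
Summed Magea CPM (log axis) against Ehmt2 CPM in the 12 libraries, with colour for the group and symbol for the replicate number. WT libraries lie at 152.0 to 209.2 CPM of Ehmt2 and KO libraries at 46.0 to 86.2 CPM, with no library between.

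Other MAGE-domain genes were mostly not detected or not called. Of 20 found in the table, 12 were tested. In each culture 1 was called higher and 1 lower in KO. Over all genes, 9.23% were called in either direction in naive cells and 15.1% in EpiLCs. Nothing particular to these genes is read from the counts. The pseudogene Mageb17-ps rose by 2.61 ± 0.698 in naive KO (edgeR adjusted p = 0.0356) and 4.67 ± 0.81 in EpiLC KO (edgeR adjusted p = 0.00319), on 4, 6 and 5 counts in naive WT, against 41, 13 and 40 in naive KO. Its naive call was lost in 6 of 12 fits that left out a library. The naive WT counts of Mageb17-ps were all below the filter minimum of 10. The filter was applied once to all 12 libraries, so both adjusted p-values of Mageb17-ps are a description. Mageb6-ps was at 2.88 ± 0.939 and 2.82 ± 0.899 without a call (edgeR adjusted p = 0.0767 and 0.0524). Magee2 fell by 1.07 ± 0.291 in EpiLC KO (edgeR adjusted p = 0.028) and Nsmce3, a subunit of the SMC5/6 complex, by 0.41 ± 0.117 in naive KO (edgeR adjusted p = 0.0468), with calls lost in 4 and 9 of 12 such fits. The median of the 12 was -0.11 in naive cells and 0.25 in EpiLCs.

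Other X-linked germline genes also differed between genotypes. Of 33 in the list, 25 were tested. In naive KO 12 rose and 1 fell, where 4.27% of all genes were called higher. In EpiLC KO 8 rose and 1 fell, where 7.22% were called higher. The list was chosen with earlier results of these data known, so these counts and the adjusted p-values of its genes are a description. The list median was 1.02 and 0.33, against 0.00 over all genes in both cultures. Pramel3 (X:135302307-135312652), of the PRAME-like family, had 0.0641, 0.353 and 0.186 CPM in naive WT and 4.31, 2.23 and 2.09 CPM in naive KO, a rise of 3.82 ± 0.599 (edgeR adjusted p = 0.00238). In EpiLCs Pramel3 rose by 4.67 ± 0.64 (edgeR adjusted p = 0.00086). With 2 to 11 counts in the WT libraries, Pramel3 passed the filter only through KO libraries, so these adjusted p-values are a description. Nxf3, a relative of the mRNA export factor, rose from 7.81 ± 0.413 to 40.8 ± 10.3 CPM in naive cells and from 13.3 ± 3.15 to 51.1 ± 4.25 CPM in EpiLCs. Fthl17d, a ferritin heavy chain-like gene, rose by 2.03 ± 0.354 and 2.01 ± 0.361. Xlr5c (1.92 ± 0.297) and Fthl17f (2.12 ± 0.341) rose in naive KO, and their values in EpiLC KO were 0.81 ± 0.268 and 0.62 ± 0.319 without a call. Nxf2, another relative of the export factor, rose by 2.02 ± 0.482 in naive KO (edgeR adjusted p = 0.0215) and 2.14 ± 0.415 in EpiLC KO (edgeR adjusted p = 0.00556), its naive call being lost in 4 of 12 fits that left out a library. Fthl17e rose by 2.81 ± 0.67 (edgeR adjusted p = 0.0214) and 2.41 ± 0.718 (edgeR adjusted p = 0.0406), with calls lost in 3 and 6 of 12 such fits. Several of these genes have close paralogs, and their counts carry the same limit as those of the distal Magea genes.

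Of 22 germline genes known to be silenced by promoter methylation, all tested, 2 rose and 2 fell in naive KO, with a median of -0.30. In EpiLC KO 5 rose and 0 fell, with a median of 0.41. Over all genes 4.27% and 7.22% were called higher. Asz1, a piRNA pathway gene, rose from 1.47 ± 1.10 to 10.6 ± 2.21 CPM in naive cells (2.85 ± 0.628, edgeR adjusted p = 0.015) and by 3.14 ± 0.654 in EpiLCs (edgeR adjusted p = 0.0079). Its naive call was lost without naive WT replicate 1, naive WT replicate 3 or naive KO replicate 1. Taf7l, an X-linked TFIID subunit gene that is also in the list of X-linked germline genes, rose by 1.58 ± 0.342 and 1.60 ± 0.324, its naive call being lost when replicate 1 of naive WT or of naive KO was left out. Sycp2, of the synaptonemal complex, rose in EpiLC KO by 2.12 ± 0.54, and the X-linked meiotic gene Tex11 fell in naive KO by 1.18 ± 0.281, with calls lost in 2 and 4 of 12 fits that left out a library.

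Of 9 genes for partners and targets of MAGE-A ligase complexes, 8 were tested and 0 were called in naive KO. In EpiLC KO 1 was called higher and 2 lower. Over all genes, 9.23% were called in either direction in naive cells and 15.1% in EpiLCs. The AMPK subunit gene Prkaa2 was at -0.27 ± 0.175 in naive KO and -0.11 ± 0.181 in EpiLC KO (edgeR adjusted p = 0.382 and 0.73). In EpiLC KO the AMPK subunit genes Prkaa1 and Prkab1 changed by 0.41 ± 0.096 (edgeR adjusted p = 0.0146) and -0.42 ± 0.103 (edgeR adjusted p = 0.0184). These calls were lost without EpiLC KO replicate 1 for both genes and without EpiLC KO replicate 3 for Prkab1. The ligase gene Trim27 was at -0.31 ± 0.096 (edgeR adjusted p = 0.0494), a call lost in 11 of 12 fits that left out a library.

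The genes whose pattern was most like the mean log2 CPM of the 7 tested members were sought over the 12 libraries among 12354 non-members, and 32 had a Pearson r above 0.9. The first 5 were Pramel3 (r = 0.987), Mdm2 (0.982), Mrvi1 (0.978), Scml2 (0.977) and Neb (0.975). Scml2, an X-linked Polycomb-group gene of the germline, had 8.65, 31.0 and 12.2 CPM in naive WT and 7.36, 27.8 and 6.22 CPM in EpiLC WT, so that replicate 2 was the highest WT library as for the distal Magea genes. In KO, Scml2 had 116.3, 97.3 and 101.8 CPM in naive cells and 110.4, 80.8 and 103.1 CPM in EpiLCs, with replicate 2 the lowest. Mdm2, the p53 ubiquitin ligase gene, differed far less, with 178.7 ± 11.6 CPM in WT and 245.4 ± 20.3 CPM in KO of the naive culture. With Spearman's rho in place of r, 2 of these 5, Scml2 and Mdm2, stayed among the first 5. In the opposite direction 62 genes had r below -0.9, the lowest being Mfsd13a (r = -0.979). Pcbp1 had r = -0.959. Ehmt2 had r = -0.916, at place 39 from the lowest. The 12 points fall into 2 genotypes, which sets most of such a correlation, so r is a description with no p.

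The libraries held 27146744 to 42204511 counts. The targeted gene, Pcbp1, had 417.9 to 475.4 CPM in naive WT and 295.3 to 302.9 in naive KO, and 511.9 to 692.1 CPM in EpiLC WT and 250.3 to 301.8 in EpiLC KO. Naive and EpiLC markers followed the labels in both genotypes, with summed EpiLC markers at 81.4 to 151.8 CPM in naive and 2020 to 3596 CPM in EpiLC libraries. Over all genes tested, 4.27% were called higher in naive KO and 7.22% in EpiLC KO. In either direction 9.23% and 15.1% were called. Nothing is read from single calls among the few markers of a cell type. Of 10 germ cell markers 0 were called between genotypes in naive cells and 1 rose in EpiLC KO. Their sum was 234.8 to 391.5 CPM in naive WT and 307.5 to 455.4 CPM in naive KO, and 55.7 to 91.8 CPM in EpiLC WT and 72.8 to 114.2 CPM in EpiLC KO, with Sohlh1 at 0 in naive WT. Of 8 markers of primitive and visceral endoderm, 0 were called in naive KO and 8 of 8 rose in EpiLC KO, their sum being 2.96 to 12.1 CPM in EpiLC WT and 32.7 to 44.2 CPM in EpiLC KO. In naive cells the endoderm sum was 3.52 to 4.97 CPM in WT and 3.79 to 6.58 CPM in KO. Of 4 tested markers of 2-cell-like cells, 1 rose in EpiLC KO, with sums of 0.896 to 4.02 CPM in WT and 2.48 to 29.9 CPM in KO. Of 4 tested fibroblast and feeder markers 1 rose in naive KO, with sums of 2.81 to 3.56 CPM in naive WT and 4.12 to 8.27 CPM in naive KO. In EpiLCs 0 of these 4 were called, with sums of 8.89 to 17.96 CPM in WT and 18.02 to 32.4 CPM in KO. The part of these other cell types in the Magea results was not tested.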

How the data were processed

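RNA from 12 libraries was prepared with a stranded mRNA kit, per the labels' protocols. The authors deposited counts per gene, made with featureCounts 2.0.1 on GENCODE M25 (GRCm38), per the file headers. Fastp, FastQC, STAR and DESeq2 are named in the submitters' processing notes. The header shows no strand or multi-mapping option. The counts were fitted with edgeR 4.0.16 (R 4.3.3; TMM scaling, quasi-likelihood test, 8 residual degrees of freedom) over 18134 genes that passed a filter on low counts (minimum 10, total 15), with Benjamini-Hochberg adjustment at 0.05. Genes without a symbol held at most 0.0312% of a library's counts. DESeq2 1.42.0, another scaling, no filter, replicate blocks and leaving out each library were the alternatives. On simulated EpiLC KO against WT counts (17648 genes, 195 changed), 44.9% of 2-fold and 75.3% of 4-fold changes were recovered. Of the calls made, 2.5% were false. Apart from the changed genes in EpiLC KO, each gene was simulated at 1 mean level in all 12 libraries. Unlike the real counts, the simulated ones thus held no difference between cultures.

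Members and gene lists were chosen with earlier results of these data known. Genes named from a list were the 4 with the smallest adjusted p in either contrast of KO with WT and any called in both. Neighbours were genes within a locus or 200 kb of a member, named where called in any contrast. The labels do not say whether a replicate number is the same clone in both cultures. The deviations of same-numbered naive and EpiLC libraries correlated at 0.218 to 0.236 in WT and 0.145 to 0.264 in KO, across genes. Different numbers of a genotype gave -0.186 to -0.020 in WT and -0.248 to 0.048 in KO. Libraries of opposite genotypes, which cannot be the same clone, reached 0.287 (EpiLC WT replicate 3 with EpiLC KO replicate 1). The numbers were taken as pairs within a genotype, which these values do not establish.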

Additional observations from a re-analysis of the deposited data

How the results depend on the processing

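The contrasts of KO with WT called 7 members in each culture under the other scaling, no filter, DESeq2 and the replicate block across genotypes, and without any single library except that Magea6 was lost without naive WT replicate 3. In the WT change from naive to EpiLC the count of 0 became 2 with no filter, 1 with DESeq2 and 4 with the replicate block within genotypes. It was 0 to 2 when a library was left out, and the cause was not tested. The shares of all genes called in these fits are not given here. The block changed no other count of members. Signs turned only for changes that were not called. With the block, Magea10 was at 0.084 in WT and Magea6 at -0.081 in KO, and with no filter Magea6 was at -0.0079 in KO. Leaving out a library gave -0.52 to 0.41 for Magea10, -1.96 to 0.66 for Magea6, -1.44 to 0.036 for Magea2 and -1.21 to 0.13 for Magea5 in WT. In KO it gave -0.58 to 0.36 for Magea6, -0.23 to 0.53 for Magea3 and -0.18 to 0.45 for Magea8, and for the Magea6 interaction -0.62 to 1.97. Low counts in WT limit the distal members and Magea10.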
